A study of Mus musculus with 4 samples.

Results

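Keratins are the proteins of the intermediate filaments of epithelial cells, and the genes described here are those whose symbol is Krt followed only by a number. On the array 55 probe sets, dim ones included, were annotated to a single such symbol, of 45037 non-control probe sets, and they stand for 44 genes of the 18193 with a single-symbol probe set. The rule used names only and no measured value. The RNA came from basal cells of the skin of mouse embryos at day 16, purified by FACS. Cells in which Ezh2 was conditionally knocked out (Ezh2cKO) were set against wild-type (WT) cells on 4 Affymetrix arrays, with replicates 1 and 2 of each genotype. Both genotypes were of mixed C57 and CD1 strain. The labels name neither the driver of the deletion nor the deleted exons, and do not say whether an array stands for 1 animal or a pool.

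A keratin filament is built from pairs of a type I and a type II chain, and each epithelial layer or cell type makes its own pair. In the epidermis, basal progenitors make Krt5 and Krt14, and cells that leave the basal layer change to Krt1 and Krt10. Periderm, simple epithelia and Merkel cells use Krt8 and Krt18, and hair follicles hold keratins of the inner root sheath and the hair shaft. Ezh2 is a histone methyltransferase of the Polycomb group, whose mark on histone H3 goes with silent genes. In the mouse the type I genes lie in a cluster on chromosome 11 and the type II genes, with the type I gene Krt18, on chromosome 15, which here held 22 of the 44 genes each.

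Values are signal intensities on a linear scale, 1 per probe set and array. The signal for Ezh2 was 661 and 1308 in Ezh2cKO, against 3336 and 3603 in WT, so the targeted gene was lower on both arrays labelled as knockout. Ezh2cKO replicate 1 stood apart in endothelial markers and in Xist, which is made in female cells. The summed signal of 7 endothelial genes was 3644 there and 9603 in Ezh2cKO replicate 2, against 7432 and 8962 in WT. Xist had 86.9 there and 11333 in Ezh2cKO replicate 2, against 8669 and 10527 in WT. The 10 basal cell markers, such as the integrin genes Itga6 and Itgb4, were all measured well above the dim range, with sums of 53978 and 52627 in Ezh2cKO, against 59094 and 53347 in WT. Genes of dermal fibroblasts were also bright, with sums over 8 genes of 62694 and 71858 in Ezh2cKO, against 62959 and 68077 in WT. In such bulk RNA, a lower number of cells of a type and less RNA per cell cannot be told apart.

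Differences are given as log2 of signal plus 16, so changes of dim genes come out too small. Of the 44 genes, 21 had a mean signal below 73.2, the level above which the upper 60% of probe sets lie, and are called dim. No detection call was used, so it is not known which of them were above background.

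None of the 55 keratin probe sets passed limma's test of Ezh2cKO against WT at an adjusted p of 0.05 (lowest adjusted p 0.999993), and the share called over all probe sets was 0%. At an unadjusted limma p under 0.05, 5 keratin probe sets were higher in Ezh2cKO and 0 were lower, while 0.731% and 0.389% of all probe sets were. These 5 belong to Krt23, Krt12 (both of its probe sets), Krt80 and Krt83. With 2 arrays against 2, an exact two-sided permutation test cannot give a p below 0.333, so the genes are described by their values and by whether the genotypes overlap. In 11 of the 44 genes, by the probe set with the highest mean, both Ezh2cKO arrays lay above both WT arrays, and in 5 both lay below. That is 25% and 11.4% of the keratins, while 9.9% and 9.14% of all genes lay so. Counted over probe sets, 14 and 5 of the 55 lay so, against 9.11% and 8.23% of all probe sets. Among the 23 keratin genes that were not dim, 5 and 3 lay so, against 8.52% and 8.39% of all such genes. In the same direction within both replicate numbers, 20 keratin genes were higher and 8 lower in Ezh2cKO, where 25.5% and 24.7% of all genes were. Of those not dim it was 12 and 4, where 25.2% and 25.6% of all such genes were. The median log2 difference over the 44 genes was 0.15 (0.069 within number 1 and 0.19 within number 2), against 0.0014 over all genes.

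The basal keratins Krt5, Krt14 and Krt15 were bright on every array and differed little between the genotypes. Krt5, the type II basal keratin, had a signal of 17243 and 16998 in Ezh2cKO, against 18518 and 15518 in WT (log2 0.014, SE 0.17, 95% confidence interval -0.41 to 0.44). Krt15, a type I keratin of basal and follicle stem cells, had 17169 and 16147 in Ezh2cKO, against 17481 and 15347 in WT (log2 0.024, SE 0.17). For both genes the Ezh2cKO values lay inside the WT range. Krt14, the type I partner of Krt5, had 16592 and 16408 in Ezh2cKO, against 15981 and 14501 in WT (log2 0.12, SE 0.16), with both Ezh2cKO values just above both WT values. A second bright Krt14 probe set overlapped, at 13891 and 12645 in Ezh2cKO, against 14127 and 12148 in WT. The third and dimmest had 863 and 1436 in Ezh2cKO, against 546 and 1360 in WT, and so differed more between the replicate numbers than between the genotypes. By their brightest probe sets 1 of the 3 basal genes lay above WT on both Ezh2cKO arrays and 0 lay below. Over all genes the shares were 9.9% and 9.14%. The median log2 difference of the 3 basal genes was 0.024. Their sign is not stable to scaling, since Krt5 was at -0.020 and Krt15 at -0.018 after quantile normalization and Krt5 at -0.0085 after scaling to a common median.

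The main suprabasal pair was bright as well in these sorted cells. Krt1, the type II keratin of spinous cells, had 13842 and 12231 in Ezh2cKO, against 12942 and 10512 in WT (log2 0.16, SE 0.18). Krt10, its type I partner, had 19789 and 18841 in Ezh2cKO, against 20275 and 16550.4 in WT (log2 0.076, SE 0.18). The ratio of the Ezh2cKO to the WT signal was 1.07 for Krt1 and 0.976 for Krt10 within number 1, and 1.16 and 1.14 within number 2. Both genes thus overlapped between the genotypes, as did Krt5, while Krt14 was narrowly separated by its brightest probe set. These bright genes reached between 48.0% (Krt1) and 85.02% (Krt10) of the largest signal on their array, where differences may be compressed, so small differences do not show equal levels.

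Other suprabasal keratins had lower signal and wider differences. Krt80, a type II keratin of differentiating epithelia, had 731 and 645 in Ezh2cKO, against 502 and 365 in WT (log2 0.66, SE 0.25, 95% confidence interval 0.048 to 1.28, limma's adjusted p 0.999993). Both Ezh2cKO arrays lay above both WT arrays, 1.46-fold within number 1 and 1.77-fold within number 2, and the log2 difference was 0.44 to 0.88 with any 1 array left out. Krt77, a type II relative of Krt1, had 408 and 579 in Ezh2cKO, against 234 and 885 in WT. Its 2 WT arrays enclosed the Ezh2cKO arrays, so its log2 difference was 0.76 within number 1 and -0.60 within number 2. Krt2, a keratin of late suprabasal cells, was dim, at 40.02 and 30.4 in Ezh2cKO, against 23.6 and 4.63 in WT (log2 0.83, SE 0.44, from 0.35 at a pseudocount of 64 to 1.61 at a pseudocount of 1). Krt78, a type II keratin of suprabasal cells, was high on 1 array only, at 156 and 26.9 in Ezh2cKO, against 25.3 and 32.1 in WT, and its log2 difference was 0.95 with all arrays and -0.054 without Ezh2cKO replicate 1. Of the 6 measured suprabasal genes 2 lay above WT on both Ezh2cKO arrays and 0 lay below, with a median log2 difference of 0.41 (0.52 within number 1 and 0.20 within number 2). Over the 4 that were not dim the median was 0.12. Of 13 markers of spinous and granular cells, 9 lay above WT on both Ezh2cKO arrays and 0 below, where 9.9% and 9.14% of all genes did. The other 4 overlapped, among them the bright Krtdap (log2 0.027) and Sbsn (log2 0.069). The summed signal of the 13 markers was 28695 and 21981 in Ezh2cKO, against 21057 and 19741 in WT. Their part in the keratin values was not tested.

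**Figure D1:**
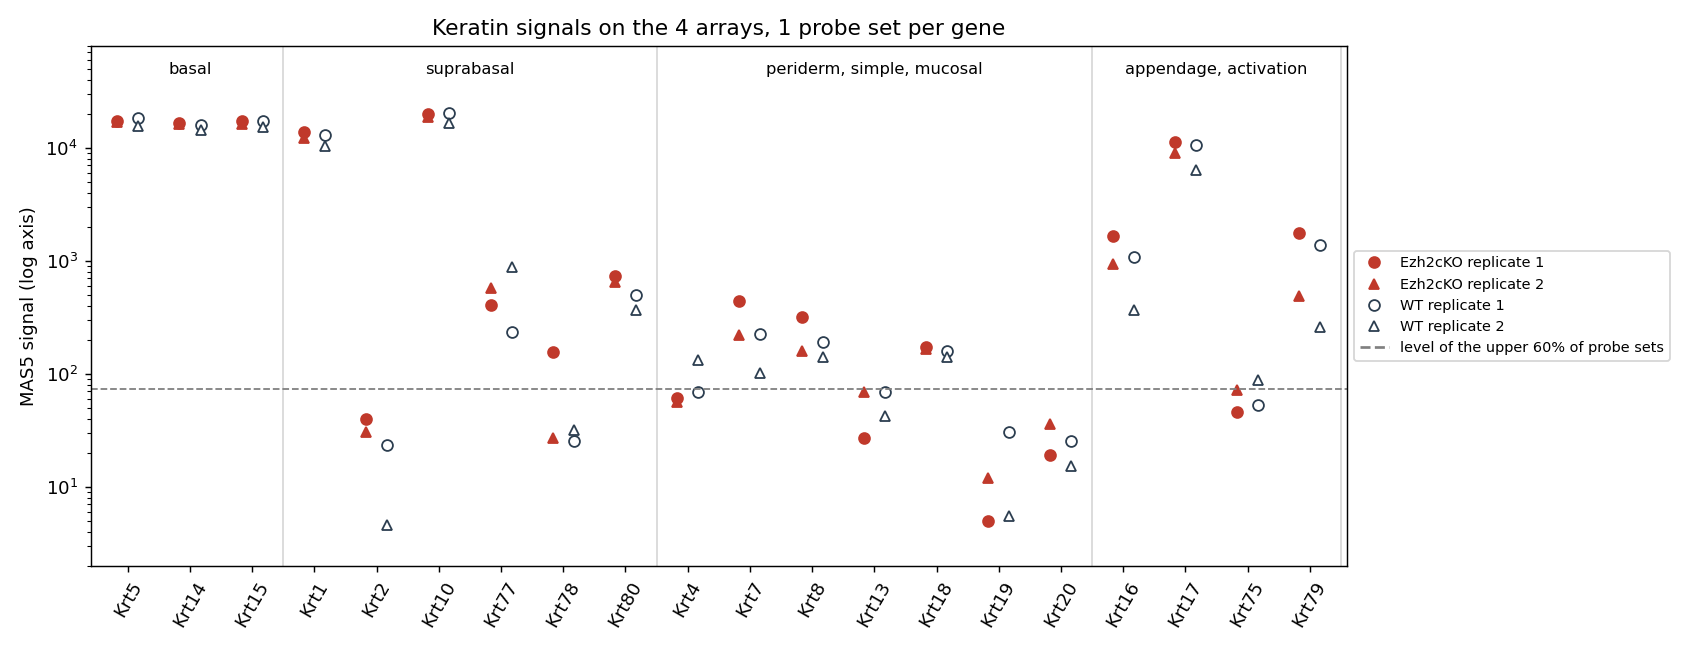
Signal of each basal, suprabasal, periderm or simple, and appendage keratin on a log axis, with filled symbols for the 2 Ezh2cKO arrays, open symbols for the 2 WT arrays, circles for replicate 1 and triangles for replicate 2; the dashed line is the level of 73.2. Krt5, Krt14, Krt15, Krt1 and Krt10 form tight sets of 4 points at the top, while Krt79, Krt16 and Krt7 spread by replicate as much as by genotype. Heights of different genes come from different probe sets and are not to be compared.

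Keratins of simple epithelia and periderm were low to dim, and they did not move together. Krt7, a type II keratin of ducts and simple epithelia, had 440.3 and 220.5 in Ezh2cKO, against 227 and 101 in WT (log2 0.96, SE 0.52). The genotypes overlapped because the lower Ezh2cKO value lay just under the higher WT value, but the ratio of Ezh2cKO to WT was close within the numbers, at 1.94 and 2.18. Without WT replicate 2 the log2 difference was 0.43 and without WT replicate 1 it was 1.49. Krt8, the type II keratin of simple epithelia, had 316 and 159.5 in Ezh2cKO, against 193 and 142 in WT (log2 0.41, SE 0.45). Its other 2 probe sets gave log2 differences of 0.15 and 0.70, and only the last was separated between the genotypes. Krt18, the type I partner of Krt8, had 174 and 165 in Ezh2cKO, against 160.4 and 142 in WT (log2 0.15, SE 0.39), a narrow separation.

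Keratins that mark periderm and mucosal epithelium gave no common direction. Krt4, the type II mucosal keratin, had 61.6 and 56.0 in Ezh2cKO, against 69.8 and 133 in WT (log2 -0.60, SE 0.53). By this probe set both Ezh2cKO values lay below both WT values. A second, dim Krt4 probe set overlapped, at 16.8 and 55.8 in Ezh2cKO, against 36.3 and 68.1 in WT (log2 -0.45). Krt13, its type I partner, had 27.2 and 68.5 in Ezh2cKO, against 68.9 and 42.1 in WT (log2 -0.22), while a second Krt13 probe set had 26.3 and 49.2 in Ezh2cKO, against 21.3 and 30.8 in WT (log2 0.33). These 2 probe sets disagree in sign, and all 3 Krt13 probe sets were dim. Krt19, a type I keratin of simple epithelia, had 5.004 and 12.02 in Ezh2cKO, against 30.6 and 5.57 in WT. Krt20, a keratin of Merkel cells and gut, had 19.1 and 35.8 in Ezh2cKO, against 25.4 and 15.5 in WT. Both Krt19 and Krt20 overlapped at values too dim to order. Of these 7 genes 1 lay above and 1 below WT on both Ezh2cKO arrays, with medians of -0.15 within number 1 and 0.38 within number 2.

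Other markers of Merkel cells and periderm mostly overlapped between the genotypes. Of all genes 9.9% lay above and 9.14% below WT on both Ezh2cKO arrays. Among 10 Merkel cell markers 1 was higher (Chga) and 1 lower (Isl2) in both Ezh2cKO arrays. Atoh1, the factor that specifies Merkel cells, had 134 and 85.6 in Ezh2cKO, against 101 and 77.3 in WT. The Merkel sums were 696 and 1153 in Ezh2cKO, against 886 and 1188 in WT. Of the 5 periderm list genes that are not keratins, 0 were separated in either direction. Among them Cldn6, a claudin of periderm, had 133 and 96.8 in Ezh2cKO, against 97.1 and 89.1 in WT. Their sums were 7671 and 3771 in Ezh2cKO, against 6249 and 2621 in WT, most of it from Ly6d, which has wider expression in the epidermis.

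By their brightest probe sets, keratins of appendages and of activated keratinocytes were higher in Ezh2cKO within both numbers for 3 of 4 genes. Over all genes that share was 25.5%. All 4 genes overlapped between the genotypes. Krt16, a type I keratin induced in activated epidermis, had 1665 and 935 in Ezh2cKO, against 1091 and 371 in WT (log2 0.95, SE 0.53). Krt17, a type I keratin of appendages that is also induced by injury, had 11212 and 8974 in Ezh2cKO, against 10577 and 6428 in WT (log2 0.28, SE 0.27). A second, much lower Krt17 probe set had 211 and 125 in Ezh2cKO, against 133 and 171 in WT. Its log2 difference was 0.61 within number 1 and -0.40 within number 2. Krt79, a type II keratin of the upper hair follicle, had 1751 and 493 in Ezh2cKO, against 1392 and 259 in WT (log2 0.61, SE 0.87). By the brightest probe set of each of these 3 genes, the replicate 1 arrays were the brighter ones in both genotypes. The lower Ezh2cKO array lay below the higher WT array. Without WT replicate 2 the log2 difference was 0.19 for Krt16, -0.076 for Krt17 and -0.57 for Krt79, and without Ezh2cKO replicate 1 that of Krt79 was -0.29. Without WT replicate 1 it was 1.71 for Krt16 (limma's adjusted p 0.077), 0.64 for Krt17 and 1.79 for Krt79 (limma's adjusted p 0.137), with a lone WT array assumed to vary like the others. Krt75, a type II keratin of the companion layer, had 46.4 and 72.5 in Ezh2cKO, against 52.7 and 89.1 in WT. Krt6a, the type II partner of Krt16, has a letter in its symbol and is no member. It had 572 and 254 in Ezh2cKO, against 248 and 201 in WT (log2 0.74), higher in both arrays.

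Of 12 hair follicle markers, 9 were brighter in replicate 1 in both genotypes, 2 were dimmer there in both (Padi3 and Tchh) and 1 was mixed (Crym). Their median log2 difference of replicate 1 minus 2 was 0.65 in Ezh2cKO and 0.45 in WT. Medians above 0 were also found in other lists, which share genes with the follicle list and so are not independent of it. They were 0.42 and 0.32 over the regulators of keratin genes, which include Hoxc13, Foxn1, Msx2, Lef1 and Dlx3 of the follicle list. Over keratin-binding genes, which include Tchh, they were 0.30 and 0.15. Over all genes that were not dim the medians were 0.049 and 0.028. Among the 12 markers the widest replicate differences were in Shh and Lhx2. Shh, a signal made by the follicle bud, had 2301 and 587 in Ezh2cKO, against 1918 and 451 in WT. Lhx2, a transcription factor of the early follicle, had 1656 and 468 in Ezh2cKO, against 1169 and 268 in WT. Over all genes 9.9% lay above and 9.14% below WT on both Ezh2cKO arrays, and of the 12 follicle markers 2 and 0. These markers summed to 11818 and 6232 in Ezh2cKO, against 10472 and 6466 in WT. Their part in the levels of Krt16, Krt17 and Krt79 was not tested.

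The difference between replicate numbers was the larger one for 14 of the 23 keratin genes that were not dim (60.9%), and for 68.7% of the 12703 genes of that brightness. By at least 2-fold in all 4 pairs of a replicate 1 and a replicate 2 array, Krt79 was higher and Krt31, a hair shaft keratin, was lower in replicate 1, where 0.275% and 1.63% of all genes were. Krt31, which was dim with a mean of 43.1, had 7.79 and 75.7 in Ezh2cKO, against 12.7 and 76.0 in WT. Its replicate numbers were thus far apart and its genotypes were not, though the replicate 1 values were low. For Krt79 the log2 difference of replicate 1 minus 2 was 1.80 in Ezh2cKO and 2.36 in WT, and for Krt7 it was 0.95 and 1.06. For Krt77 it was -0.49 in Ezh2cKO and -1.85 in WT. What the numbers stand for is not stated in the labels.

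**Figure D2:**
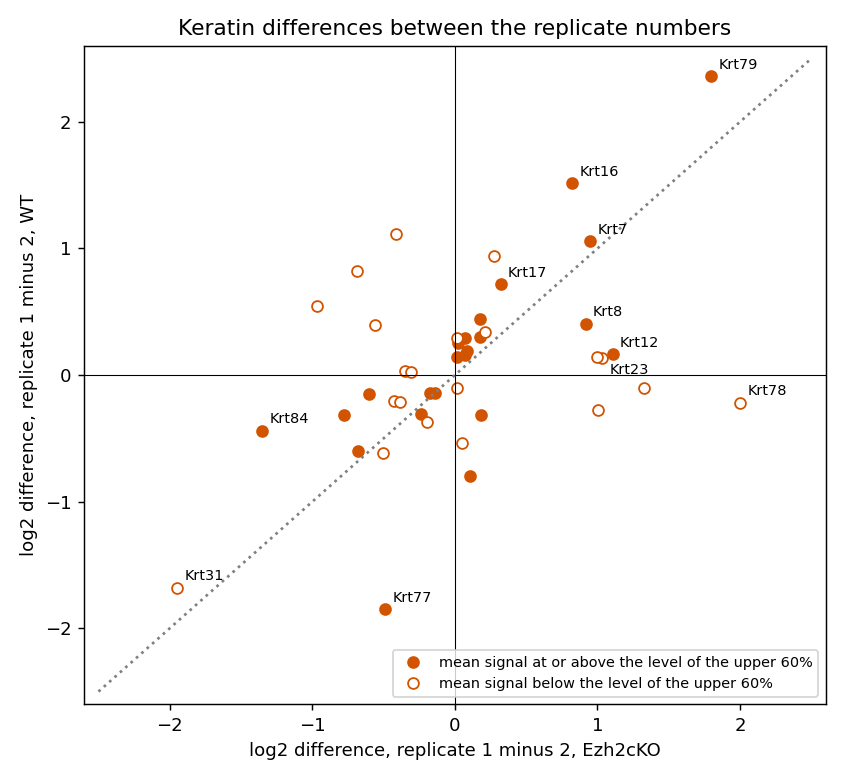
Log2 difference of replicate 1 minus replicate 2 in Ezh2cKO (x axis) and in WT (y axis), 1 point per keratin gene, filled where the mean signal is at least 73.2; the dotted line marks equal differences. Krt79 lies at the upper right, at 1.80 and 2.36, and the dim Krt31 at the lower left. Their replicate difference was shared by both genotypes, while Krt78 lies far right at a WT value near 0.

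Inner root sheath keratins were mostly dim and gave no common direction. Of 7 measured genes 2 had a mean of at least 73.2. On both Ezh2cKO arrays 2 of the 7 lay above and 1 below WT, where 9.9% and 9.14% of all genes did. Log2 differences of the 7 ran from -0.32 (Krt72) to 0.67 (Krt28). Krt71, a type II keratin of all layers of the sheath, had 114 and 98.6 in Ezh2cKO, against 105 and 134 in WT (log2 -0.14, SE 0.45). Krt72, another type II sheath keratin, had 63.4 and 71.5 in Ezh2cKO, against 82.8 and 93.3 in WT, with both Ezh2cKO values below both WT values. The 4 type I sheath keratins Krt25, Krt26, Krt27 and Krt28 had signals between 1.71 and 35.4 on every array. Tchh, the sheath protein trichohyalin that binds keratins, had 104 and 151 in Ezh2cKO, against 108 and 150 in WT.

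Among 10 measured hair shaft keratins, 2 lay above and 1 below WT on both Ezh2cKO arrays, with a median log2 difference of -0.053. Krt32, a type I keratin of the hair cuticle, had 328 and 389 in Ezh2cKO, against 341 and 425 in WT (log2 -0.087, SE 0.27). Krt81, a type II keratin of the hair cortex, had 276 and 485 in Ezh2cKO, against 278 and 349.8 in WT (log2 0.22, SE 0.35). Both overlapped between the genotypes. The genes that were separated lay lower in signal. Krt83, a type II hair keratin, had 29.6 and 29.2 in Ezh2cKO, against 12.485 and 7.27 in WT (log2 0.82, SE 0.32). Krt36, a type I keratin, had 105 and 120.5 in Ezh2cKO, against 74.8 and 84.0 in WT (log2 0.43, SE 0.47). Krt35, a type I keratin of the hair matrix and cuticle, had 22.6 and 22.1 in Ezh2cKO, against 35.9 and 39.6 in WT (log2 -0.49, SE 0.39). These 3 genes, like Krt28 and Krt72, were named after their values were seen.

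The widest differences among all keratins were in Krt23 and Krt12, which were likewise named after their values were seen. Krt23, a type I keratin that is inducible in simple epithelial cells, had 164 and 72.0 in Ezh2cKO, against 13.5 and 10.8 in WT (log2 2.16, SE 0.54, 95% confidence interval 0.84 to 3.49, limma's adjusted p 0.999993). Both Ezh2cKO arrays lay well above both WT arrays. It was the single keratin probe set at least 2-fold higher whichever Ezh2cKO array was set against whichever WT array, where 0.0866% of all probe sets were, and 0 keratin probe sets were 2-fold lower, where 0.0377% were. At 1.5-fold 4 keratin probe sets were higher and 0 lower, where 0.517% and 0.258% were. Krt12, the type I keratin of the corneal epithelium, had 191 and 79.9 in Ezh2cKO, against 32.6 and 27.3 in WT (log2 1.62, SE 0.58). A second Krt12 probe set had 120.01 and 40.7 in Ezh2cKO, against 13.8 and 19.9 in WT (log2 1.42, SE 0.57). Both Krt12 probe sets were thus higher in both Ezh2cKO arrays.

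Krt23 is dim, with a mean of 65.1, and its signal in Ezh2cKO replicate 2 was also below 73.2. The WT signals of Krt23 and Krt12 were below 73.2, so the size of both differences is uncertain. It ran from 1.21 at a pseudocount of 64 to 3.07 at a pseudocount of 1 for Krt23, and from 1.03 to 2.01 for Krt12. Without Ezh2cKO replicate 1, the brighter array for both, it was 1.65 and 1.06. Within both numbers at least 1.5-fold, 5 keratin genes were higher (Krt7, Krt12, Krt16, Krt23 and Krt83) and 0 were lower, where 1.24% and 0.533% of all genes were. Krt24, a further type I keratin, was high on 1 array only, at 39.4 and 6.02 in Ezh2cKO, against 3.14 and 4.56 in WT. Krt42, a type I neighbour of Krt17, had 666 and 1076 in Ezh2cKO, against 644 and 982 in WT (log2 0.088, SE 0.32). Krt76, a type II keratin of the palate, had 26.9 and 5.36 in Ezh2cKO, against 13.2 and 19.4 in WT, and Krt222 gave opposite signs in its 2 dim probe sets. Krt88, in none of the lists, had 50.2 and 84.3 in Ezh2cKO, against 94.3 and 106 in WT, lower in both arrays.

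**Figure D3:**
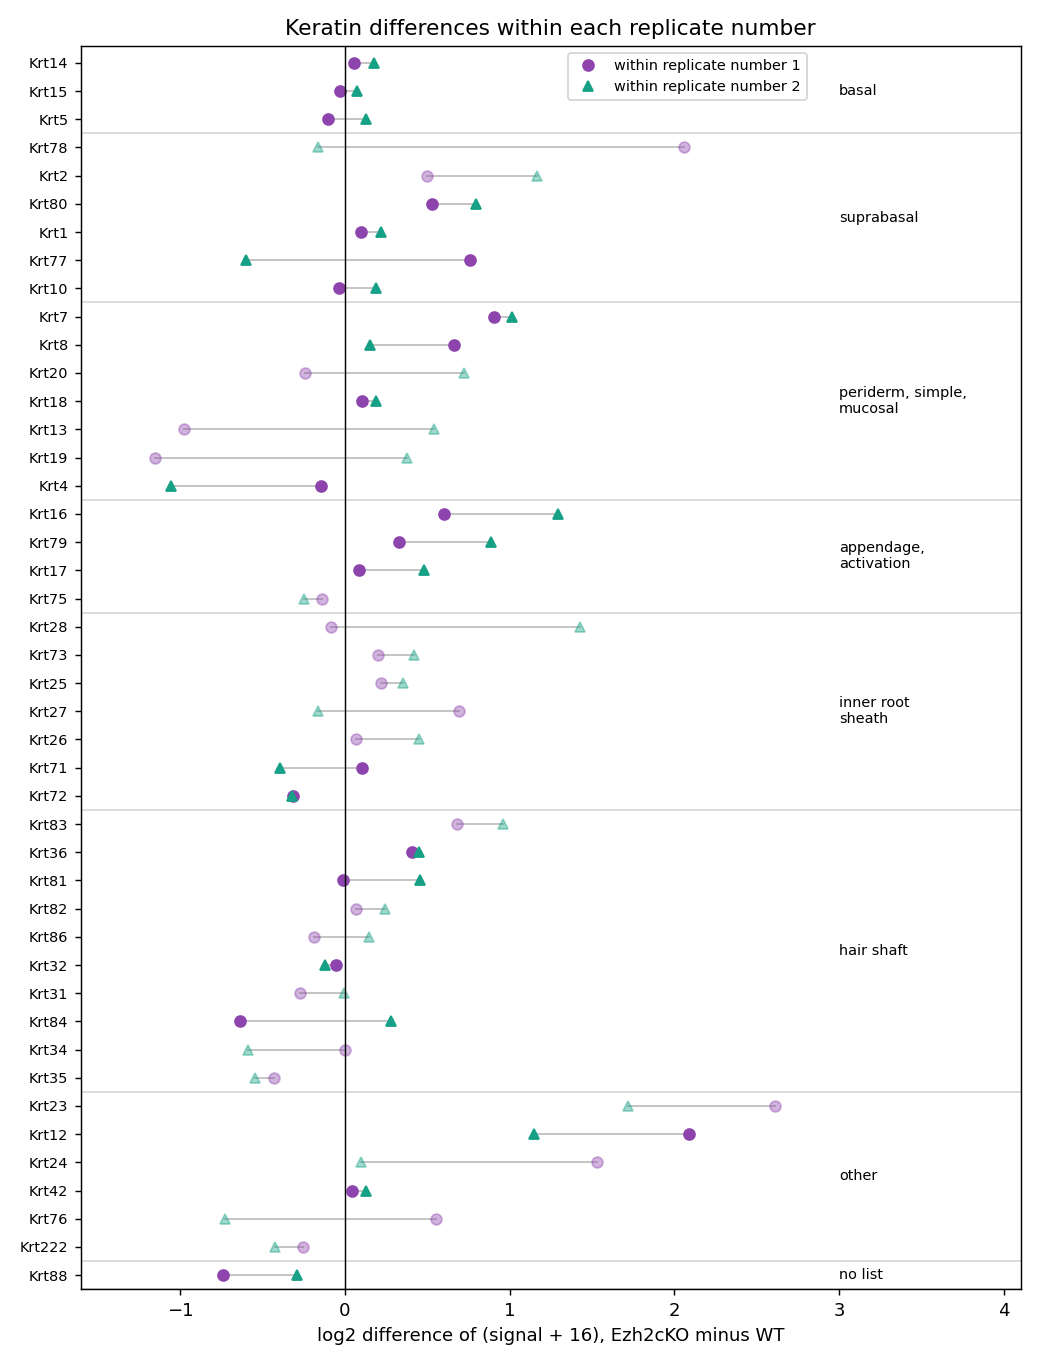
Log2 difference of Ezh2cKO minus WT for each of the 44 keratin genes within replicate number 1 (circles) and number 2 (triangles), 1 array per genotype, grouped by list, with pale symbols for dim genes. Krt23, Krt12, Krt7, Krt16 and Krt83 have both symbols to the right by at least 1.5-fold, the basal keratins and Krt1 and Krt10 sit close to 0, and Krt78, Krt77, Krt13 and Krt19 have symbols on opposite sides.

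In genome order on chromosome 11, Krt10, Krt12, Krt20 and Krt23 follow each other with 0 other protein-coding genes between neighbours. Their log2 differences were 0.076, 1.62, 0.24 and 2.16. The bright Krt10 and the dim Krt20, which overlapped between the genotypes, alternated with Krt12 and the dim Krt23, which were separated. Toward the far end of that cluster Krt14, Krt16 and Krt17 are neighbours too, with 0.12, 0.95 and 0.28. On chromosome 15, Krt80 and Krt7 lie side by side at one end, with 0.66 and 0.96, and Krt8 and Krt18 at the other, with 0.41 and 0.15. Of the 23 type I genes 8 lay above and 2 below WT on both Ezh2cKO arrays, and of the 21 type II genes 3 above and 3 below. Of all genes 9.9% lay above and 9.14% below. The 8 type I genes include the dim Krt23, Krt24, Krt25 and Krt26. They also include Krt14 and Krt18, whose genotypes were only log2 0.038 and 0.035 apart. The median log2 difference was 0.15 for type I and 0.16 for type II, and the difference between the types was not tested.

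**Figure D4:**
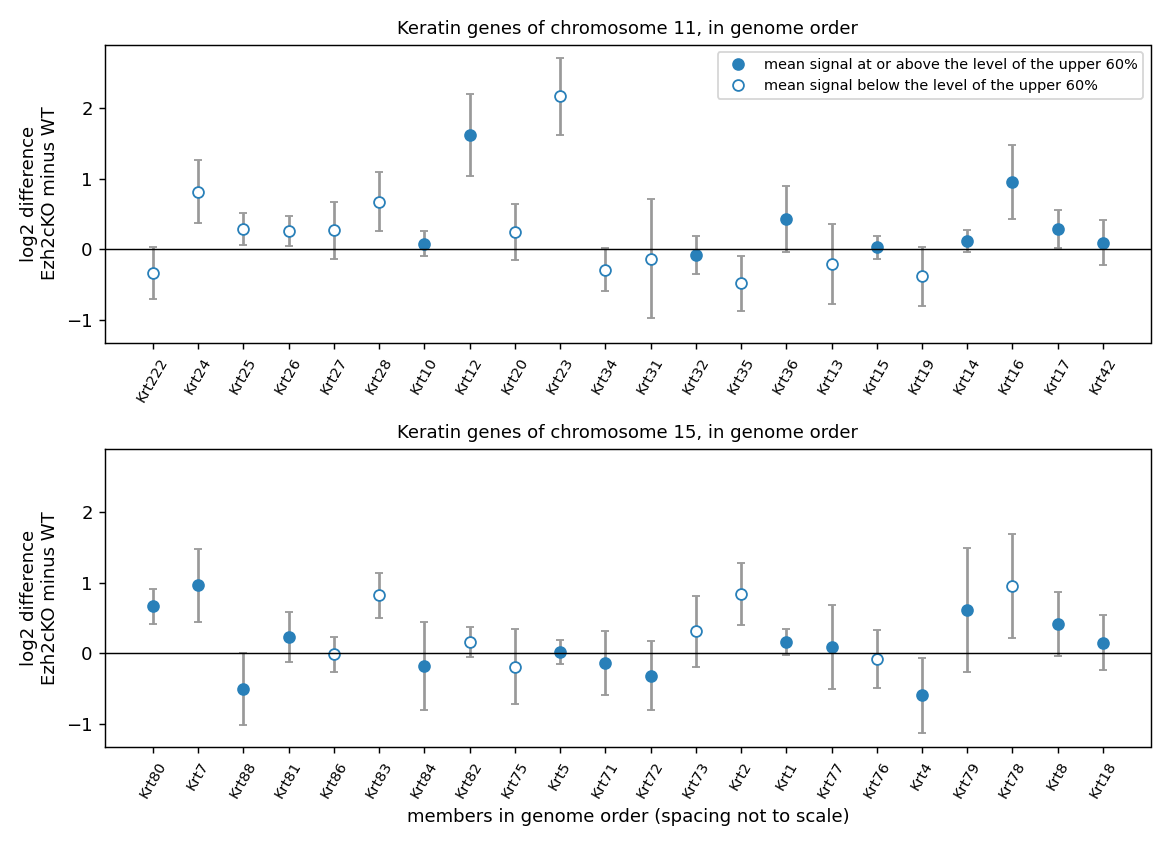
Log2 difference of Ezh2cKO minus WT (limma, error bars are the SE from 2 arrays per genotype) for the keratin genes of chromosome 11 (top) and chromosome 15 (bottom) in genome order, with open symbols for dim genes. Krt12 and Krt23 stand out at 1.62 and 2.16 on both sides of Krt20 at 0.24, and Krt80 and Krt7 lie together at one end of chromosome 15.

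Sequences of 250 bases before the annotated start are given for genes on which these comparisons turn, from RefSeq on GRCm38.p6. They are Krt14, whose bright probe sets differed little, the CpG-rich Krt7, and the neighbours Krt12, Krt20 and Krt23. Each is written 5′ to 3′ on the gene's strand, with capitals for every CG and for TATAAA within the last 50 bases.
Krt14, chr11:100206031-100206280, minus strand: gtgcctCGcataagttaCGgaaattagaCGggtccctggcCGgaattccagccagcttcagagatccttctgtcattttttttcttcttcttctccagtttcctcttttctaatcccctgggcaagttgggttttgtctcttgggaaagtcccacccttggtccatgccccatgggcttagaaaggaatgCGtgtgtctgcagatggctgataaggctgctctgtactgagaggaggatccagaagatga
Krt7, chr15:101412153-101412402, plus strand: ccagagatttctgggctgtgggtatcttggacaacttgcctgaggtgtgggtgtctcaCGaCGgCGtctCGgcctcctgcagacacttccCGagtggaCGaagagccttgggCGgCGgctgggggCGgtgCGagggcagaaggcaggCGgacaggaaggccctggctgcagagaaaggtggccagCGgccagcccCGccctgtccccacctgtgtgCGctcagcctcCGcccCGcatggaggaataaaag
Krt12, chr11:99422260-99422509, minus strand: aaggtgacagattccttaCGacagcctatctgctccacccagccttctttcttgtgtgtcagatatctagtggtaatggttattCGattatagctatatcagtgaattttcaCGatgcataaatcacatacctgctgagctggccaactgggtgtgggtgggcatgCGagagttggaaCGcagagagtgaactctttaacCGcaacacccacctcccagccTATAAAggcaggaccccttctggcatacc
Krt20, chr11:99438154-99438403, minus strand: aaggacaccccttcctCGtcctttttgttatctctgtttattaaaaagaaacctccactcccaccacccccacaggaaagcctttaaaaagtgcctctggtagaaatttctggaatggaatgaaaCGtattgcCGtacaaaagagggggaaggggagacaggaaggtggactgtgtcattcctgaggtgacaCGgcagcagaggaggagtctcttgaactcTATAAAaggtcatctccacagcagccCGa
Krt23, chr11:99493121-99493370, minus strand: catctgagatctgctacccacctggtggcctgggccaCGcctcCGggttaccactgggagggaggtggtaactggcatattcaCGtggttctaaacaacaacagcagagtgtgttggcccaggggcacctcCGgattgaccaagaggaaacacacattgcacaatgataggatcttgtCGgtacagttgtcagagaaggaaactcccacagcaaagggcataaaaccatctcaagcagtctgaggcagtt
Krt12 and Krt20 both hold TATAAA at position -29, counted from the start, while Krt23, Krt14 and Krt7 do not hold these letters in that window. Krt12 was separated between the genotypes and Krt20 was not.

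Promoters could be matched for 31 of the 44 keratin genes, 32 windows in all. TATAAA on the gene's strand in the last 50 bases was found in 13 of the 32 (40.6%), against 3.17% of 21262 windows of all protein-coding genes. Keratin windows were poor in CpG, with a median of 4 per 250 bases and a range of 1 to 16, against a median of 10 in all windows. At least 10 CpGs were found in 2 of 32 keratin windows (6.25%), against 50.1% of all. These 2 belong to Krt7, with 16, and Krt18, with 12, both keratins of simple epithelia, while Krt8 had 3. CCGCCC, a GC box searched on both strands, was in 6.25% of keratin windows and 42.6% of all. TGANTCA, the AP-1 motif searched on both strands, was in 6.25% of keratin windows, both of Krt13, and in 6.13% of all windows, so it was near the background. A match describes letters and not a bound site.

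Genes that bind or anchor keratin filaments mostly overlapped between the genotypes. Of 20 listed 19 were measured, 2 lay above and 2 below WT on both Ezh2cKO arrays, and 0 were called. None of the 19 was dim, and of all such genes 8.52% lay above and 8.39% below. Flg, the gene of filaggrin, which bundles keratin filaments, had 169 and 184 in Ezh2cKO, against 23.8 and 29.5 in WT (log2 2.18). Pkp2, a desmosomal plaque protein, had 211 and 178 in Ezh2cKO, against 101 and 98.3 in WT (log2 0.86). Both were higher in both Ezh2cKO arrays. Dst, whose epithelial product ties keratin to the hemidesmosome, had 5009.7 and 4903 in Ezh2cKO, against 6494 and 5309 in WT (log2 -0.24). Hrnr, a relative of filaggrin, had 642 and 863 in Ezh2cKO, against 137 and 684 in WT, and overlapped. Dsp and Plec, cytolinkers of the desmosome and hemidesmosome, had log2 differences of -0.028 and -0.035.

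Known regulators of keratin genes, which are transcription factors and the receptor Notch1, showed 0 of 22 separated in either direction, of 24 listed. None of the 22 was dim, and of all such genes 8.52% lay above and 8.39% below WT on both Ezh2cKO arrays. Trp63, the master factor of stratified epithelium that drives Krt5 and Krt14, had 8227 and 6936 in Ezh2cKO, against 9040.04 and 7466 in WT (log2 -0.12). Pou3f1, an epidermal POU factor, had the largest moderated t of the list, with 3260 and 1395 in Ezh2cKO, against 1981 and 1181 in WT (log2 0.48). Notch1, a receptor that drives basal cells toward Krt1 and Krt10, had 6757 and 5615 in Ezh2cKO, against 8011 and 6161 in WT (log2 -0.19). The remaining regulators lay between log2 -0.30 (Hoxc13) and 0.29 (Msx2), with a list median of 0.075.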

How the data were processed

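The authors' deposited values are MAS5 signal intensities on a linear scale, 1 per probe set and array, and MAS5 is named without a version, per the submitters' processing notes. Without the lowest and highest 2% of values, each array averages 500, and this scaling was kept. It left lower medians in replicate 1 (87.4 in Ezh2cKO and 91.6 in WT) than in replicate 2 (148 and 137). Of 45101 probe sets 64 controls were left out. Of the other 45037, 34945 had 1 symbol, 932 had several and 9160 were listed with no gene. Gene identifiers of 34741 were found in RefSeq (GRCm38.p6), which gave the current symbol. Groups and replicate numbers come from the sample titles. Values were taken as log2(signal + 16), and limma 3.58.1 under R 4.3.3 was fitted without a block and with an intensity trend in eBayes over all 45037 probe sets, dim ones included, with Benjamini-Hochberg adjustment. Nothing in the labels says that replicates came from separate animals, so a p-value reflects just how far these arrays spread, and their number limits the precision.

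A gene is represented by its probe set with the highest mean. Values on all arrays are given for every basal, suprabasal, periderm, simple and appendage keratin, for up to 3 genes per longer list with a mean of at least 100, and for up to 4 members per pathway list by moderated t, of which part is printed; other genes were named after their values were seen. In 8 genes with several probe sets, 3 gave opposite signs (Krt13, Krt42, Krt222). Of the keratin probe sets 8 are of the x and 2 of the s design type, which can detect paralogs, so single values there are uncertain, the brightest ones of Krt4, Krt12, Krt42, Krt76 and Krt82 included. Krt14 and Krt17 share 1 further probe set, which was left out. The keratins and lists were chosen with earlier results of these data known. Alternatives were pseudocounts of 1 and 64, filters to the upper 60% and 40%, quantile and median scaling, the replicate number as a block, no trend, other thresholds, averaging the probe sets of a gene, and omitting each array in turn.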

Additional observations from a re-analysis of the deposited data

How the results depend on the processing

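No keratin probe set was called at an adjusted p of 0.05 under any alternative that kept all 4 arrays (limma, 0 of 55). At an adjusted p of 0.1, a threshold used on the main fit only, 0 were called as well. The labels do not say what the replicate numbers share. Deviations of same-numbered arrays correlated at 0.61 over all probe sets, from 2 pairs only. With the replicate number as a block 0 keratin probe sets were called, with a lowest adjusted p of 0.574 (Krt23), and no call changed. Over the other alternatives the lowest was 0.077, for Krt16 without WT replicate 1. Keratin genes higher in both Ezh2cKO arrays numbered 11, where 9.9% of all genes lay so. In the upper 60% and 40% of probe sets, where fewer keratins remain, they numbered 5 and 2, against 8.52% and 7.99% of all such genes. Those lower numbered 5 (9.14% of all genes), against 3 and 0 in these filters (8.39% and 8.65%). When the probe sets of a gene were averaged, 3 were lower. After quantile normalization 9 were higher and 6 lower (10% and 11.3% of all genes), and after median scaling 8 and 5 (6.88% and 7.93%). Counted within both numbers, an alternative chosen after seeing the data, 20 were higher and 8 lower, where 25.5% and 24.7% of all genes were. With 1 array left out, which eases the rule since a lone array stands for a genotype, the counts were 16 to 22 and 9 to 13 of 44, where 24.1% to 36% and 23.8% to 35.7% of all genes were. The count of probe sets 2-fold higher in all pairs was 1, and was 3 at a pseudocount of 1 (0.595% of all probe sets), 0 at a pseudocount of 64 (0.0111%), 0 in either filter (0.0481% and 0.05%), 4 at 1.5-fold (0.517%), and 1 to 5 with 1 array left out (0.411% to 1.29%).

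List medians moved to 0.089 at a pseudocount of 64 and -0.23 in the upper 60% for the inner root sheath (0.26 in the main analysis), to 0.12 in either filter for suprabasal keratins and to 0.96 in the upper 40% for periderm and simple keratins, where fewer genes remain. With 1 array left out, medians ran from -0.070 to 0.14 (basal), 0.20 to 0.57 (suprabasal), -0.041 to 0.23 (periderm and simple), 0.018 to 1.17 (appendage), 0.097 to 0.27 (inner root sheath), -0.19 to 0.42 (hair shaft) and 0.28 to 0.95 (other). Of 26 genes checked 16 changed sign with some array left out. The range was -0.11 to 0.14 for Krt5, -0.070 to 0.12 for Krt15, -0.070 to 0.22 for Krt10, -0.84 to 1.007 for Krt77, -0.054 to 1.95 for Krt78, -0.052 to 0.87 for Krt8, -0.94 to 0.17 for Krt19, -0.041 to 0.52 for Krt20, -0.70 to 0.27 for Krt13, -0.076 to 0.64 for Krt17, -0.50 to 0.11 for Krt75, -0.57 to 1.79 for Krt79, -0.30 to 0.016 for Krt71, -0.17 to 0.61 for Krt81, -0.24 to 0.066 for Krt32 and -0.25 to 0.43 for Krt42. The other 10 kept their sign but not their size, at 1.06 to 2.17 for Krt12, 1.65 to 2.68 for Krt23, 0.19 to 1.71 for Krt16, 0.43 to 1.49 for Krt7, 0.44 to 0.88 for Krt80, 0.36 to 1.30 for Krt2, 0.046 to 0.19 for Krt14, 0.069 to 0.23 for Krt18, 0.0077 to 0.31 for Krt1 and -0.9998 to -0.20 for Krt4. Among 189 values under other alternatives 4 changed sign. Krt5 was at -0.020 and Krt15 at -0.018 after quantile normalization, Krt5 at -0.0085 after scaling to a common median, and Krt13 at 0.023 with the mean of its probe sets. The cause was not tested.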
